A study of Rattus norvegicus with 6 samples.

Results

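Homeobox genes that lie outside the Hox clusters were compared between RCS cells and rat rib tissue. The genes were taken by symbol from the families Alx, Barx, Dlx, Emx, En, Gsc, Irx, Isl, Lhx, Lmx, Meis, Meox, Msx, Nkx, Otx, Pax, Pbx, Pitx, Pknox, Prrx, Shox, the sine oculis homeobox group and Tlx, paired box genes included. Of 27217 genes in the deposited table, 90 carried such a symbol. The opposite-strand gene Six6os1 was left out, which left 89 entries with 88 symbols, since Otx2 had 2 entries. RNA-seq covered 3 libraries of the rat chondrosarcoma line RCS, which grows as cartilage-like tumour cells, and 3 libraries of neonatal rat rib. No treatment, strain, sex or exact age is given in the sources used here, and rib pieces can hold cartilage, bone, muscle, perichondrium, vessels and nerve. The series title places the libraries in work on SOX9, SOX5 and SOX6 in chondrocytes. The design text calls the replicates biological without naming cultures or animals, so the p-values measure the spread between these libraries only, which may be technical in part.

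Homeobox genes encode transcription factors that bind DNA through a homeodomain, and paired box genes of the Pax family encode a paired domain with or without one. In the embryo they give regions and cell lineages their identity, and in the skeleton they act before and beside the SOX factors. Pax1, Pax9 and Nkx3-2 act in the sclerotome that forms vertebrae and ribs, Prrx1 and Prrx2 in limb and connective tissue mesenchyme, Shox2 in the proximal limb skeleton, and Pax7, Meox, sine oculis and EYA proteins in the muscle lineage. The TALE proteins Pbx, Meis and Pknox bind DNA together with Hox and other homeodomain proteins, and LIM homeodomain proteins such as Isl1 work with LDB1 and its relatives.

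The promoters of the 3 genes with the largest differences in each direction among those with a RefSeq promoter entry are given first, because these 6 genes carry the contrast described below. Each line holds the 250 bases before the first listed transcription start, 5′ to 3′ on the gene's own strand, from RefSeq promoter sequences of the build GRCr8, and capitals mark each CG dinucleotide. Isl1 (chr2:49823443-49823692, minus strand), Irx1 (chr1:33122872-33123121, plus strand) and Dlx1 (chr3:76763614-76763863, plus strand) were high in RCS cells. Meis1 (chr14:97495084-97495333, minus strand), Prrx1 (chr13:78204074-78204323, minus strand) and Meox2 (chr6:59583775-59584024, plus strand) were high in rib tissue. The submitters' processing notes name another build, rn5, for the expression data, and no coordinates of that build are given.
Isl1: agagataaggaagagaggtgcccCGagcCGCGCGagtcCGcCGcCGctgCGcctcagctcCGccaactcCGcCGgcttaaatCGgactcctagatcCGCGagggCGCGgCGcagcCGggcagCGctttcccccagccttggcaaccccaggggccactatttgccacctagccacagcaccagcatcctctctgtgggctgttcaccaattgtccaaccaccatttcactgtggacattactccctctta
Irx1: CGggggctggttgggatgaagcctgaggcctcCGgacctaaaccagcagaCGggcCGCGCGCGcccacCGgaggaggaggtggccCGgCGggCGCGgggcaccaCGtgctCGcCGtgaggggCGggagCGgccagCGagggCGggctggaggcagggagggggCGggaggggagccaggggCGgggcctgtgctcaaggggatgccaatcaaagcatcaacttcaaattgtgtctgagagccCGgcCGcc
Dlx1: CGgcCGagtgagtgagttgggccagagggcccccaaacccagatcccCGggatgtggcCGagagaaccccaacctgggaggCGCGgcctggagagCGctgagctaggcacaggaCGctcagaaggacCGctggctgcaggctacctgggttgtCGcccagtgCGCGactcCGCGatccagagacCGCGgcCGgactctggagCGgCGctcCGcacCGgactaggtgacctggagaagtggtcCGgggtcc
Meis1: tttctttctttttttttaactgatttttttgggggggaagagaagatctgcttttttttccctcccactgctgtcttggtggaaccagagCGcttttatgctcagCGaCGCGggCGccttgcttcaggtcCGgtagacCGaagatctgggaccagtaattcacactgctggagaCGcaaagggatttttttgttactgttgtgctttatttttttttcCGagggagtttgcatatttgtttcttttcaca
Prrx1: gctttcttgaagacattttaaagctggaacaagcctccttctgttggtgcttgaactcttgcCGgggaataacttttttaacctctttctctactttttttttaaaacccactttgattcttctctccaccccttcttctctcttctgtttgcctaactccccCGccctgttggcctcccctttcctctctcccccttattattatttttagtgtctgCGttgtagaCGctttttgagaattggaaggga
Meox2: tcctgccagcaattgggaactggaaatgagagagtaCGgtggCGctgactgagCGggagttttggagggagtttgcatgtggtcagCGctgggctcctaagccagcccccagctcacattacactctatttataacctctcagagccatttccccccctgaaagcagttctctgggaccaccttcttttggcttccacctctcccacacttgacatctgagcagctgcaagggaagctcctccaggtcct

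Many of the homeobox genes were listed in one group of libraries and at 0 in the other. The authors' deposited log2 values were read here as normalized counts, reads scaled by a factor for each library, and those of 1 or less are listed as 0. Of the 89 entries, 9 (10.1%) were above 0 in all 3 RCS libraries and at 0 in all 3 rib libraries, a pattern that 0.492% of all 27217 genes had. The reverse, above 0 in all 3 rib libraries and at 0 in all 3 RCS libraries, held for 17 entries (19.1%) against 7.15% of all genes. Another 28 entries (31.5%, against 49.2% of all genes) were above 0 in all 6 libraries, and 18 (20.2%, against 33.6%) were at 0 in all 6. Among genes with a group mean of at least 5 on the log2(normalized count + 1) scale in either group, 3 of 37 homeobox genes (8.11%) were listed in RCS cells alone against 0.212% of 13180 genes, and 10 (27.0%) in rib tissue alone against 6.08%. The symbols and groups of genes were chosen with earlier results of these data known, so these shares describe the genes and are given without a test.

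Each gene was tested as log2(normalized count + 1) with limma over all genes of the table, with an adjusted p (Benjamini-Hochberg) below 0.05 taken as a call. Of the 89 entries, 63 (70.8%, against 61.8% of all genes) reached a normalized count of 1 in 3 or more libraries and were tested. In RCS cells 27 were higher and 30 lower, and 6 passed in neither direction. Over all 16809 genes tested 76.5% were called, 32.9% higher in RCS cells and 43.6% lower. The groups of libraries did not overlap at 28 entries with RCS cells above (34.4% of all genes tested) and 29 with RCS cells below (44.5%). Among those tested, 17 lay at 0 throughout RCS cells and 9 throughout rib tissue. These passed the filter through one group and had to differ. Their adjusted p-values, printed below for Isl1, Isl2, Dlx1, Prrx1, Prrx2, Meis1, Meox2, Nkx6-3 and Dlx3, are therefore given as values and lend no support. Irx1, Nkx2-2 and Pax6 were at 0 in rib tissue replicate 3 and needed their RCS values to pass the filter. The adjusted p-values of these genes are likewise given as values and lend no support. Among the 37 genes at the level of 5, 14 were higher in RCS cells and 19 lower, where 38% and 40.3% of genes at that level were called. The median size of the difference was 2.73 on the log2 scale, against 0.94 over all genes tested, and 10 of 63 entries (15.9%) lay within 2-fold against 52.1%, given as a description of genes chosen by symbol. Under quantile normalization, which moved the median gene by 0.52 towards RCS cells, RCS cells stood above at 33 entries and below at 21, against 31 and 25 with cyclic loess. Over all genes tested, 43.0% of the calls were higher in RCS cells, against 61.9% with quantile normalization and 50.1% with cyclic loess.

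**Figure D1:**
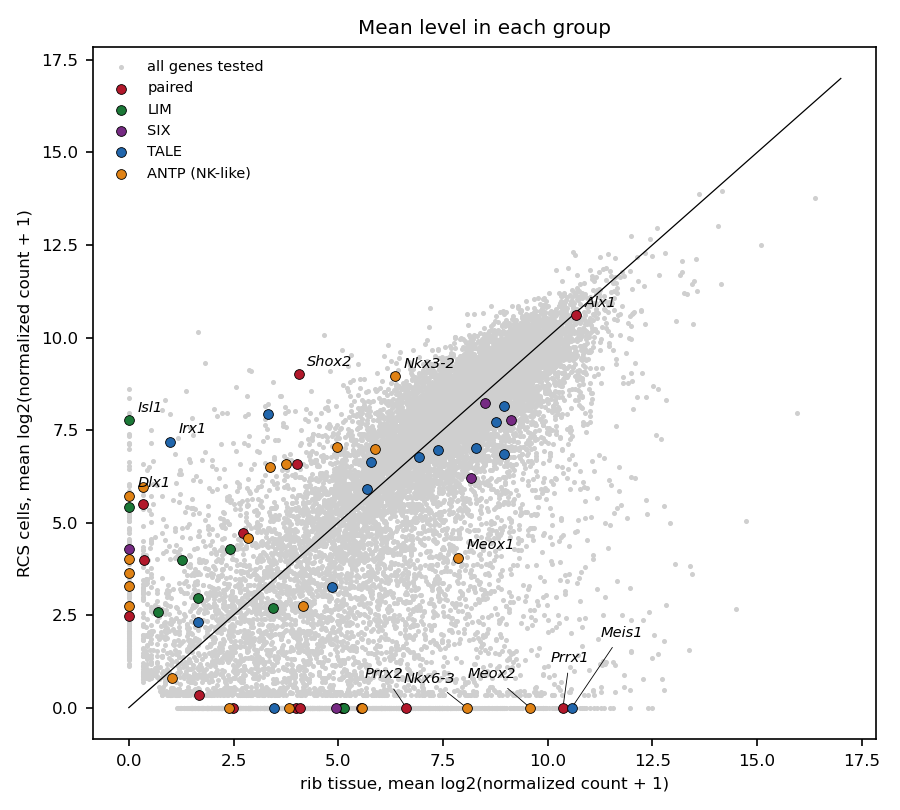
Mean level in rib tissue (horizontal axis) against RCS cells (vertical axis), both as log2(normalized count + 1) over 3 libraries, for the 16809 genes tested (grey) and the 63 homeobox entries tested, coloured by class. The line marks equal levels; Isl1 and Dlx1 lie on the vertical axis at 0 in rib tissue, Meis1, Prrx1 and Meox2 on the horizontal axis at 0 in RCS cells, and Alx1 lies near the line.

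The libraries held an estimated 5320000 to 8530000 reads on genes. Correlations across genes were at least 0.969 within a group and 0.650 to 0.690 between groups. A gene listed at 0 can hold up to 1.93 reads in an RCS library and up to 1.32 in a rib library. Both groups had the chondrocyte markers, whose 11 genes (Sox9, Col2a1 and Acan among them) had sums of 58503 to 79259 normalized counts over the RCS libraries and 103842 to 172057 over the rib libraries, none at 0. Col2a1 was at 16801, 14707 and 10780 in RCS cells and 112920, 55595 and 97595 in rib tissue, the largest rib values of this list. The 12 fibroblast and perichondrium markers had sums of 280.3 to 307 normalized counts over the RCS libraries and 48042 to 90599 over the rib libraries. Dcn, Twist2 and Dpt were at 0 in every RCS library and Tcf21 at 0 in all 6 libraries. Twist1 of this list was at 113, 135 and 139 in RCS cells and 164, 143 and 114 in rib tissue, and was not called. The 11 skeletal muscle markers found summed to 178 to 215 and 18941 to 34712, with Myod1, Myog, Myf5 and Myf6 at 0 in every RCS library. Osteoblast markers summed to 1306 to 1419 and 20538 to 48217. Col1a1, counted in this list and in the fibroblast list, was at 43561, 24463 and 19017 in the rib libraries, the largest values of the osteoblast list. Sp7 and Alpl of that list were called in neither direction. Endothelial markers summed to 439 to 476 and 2781 to 4369. Of these, Vwf was at 452, 428 and 388 in RCS cells and was not called. Cdh5, Kdr, Tie1 and Emcn were at 0 in every RCS library. Schwann and nerve markers summed to 1198 to 1328 and 3871 to 4757, and myeloid markers to 26.9 to 39.3 and 1172 to 2205. S100b was at 659, 751 and 742 in RCS cells, the largest RCS values of the Schwann and nerve list. Of these lists, 10 fibroblast, 11 muscle, 6 osteoblast, 7 endothelial, 8 Schwann and 8 myeloid genes were lower in RCS cells and none was higher, while 2 chondrocyte genes were higher and 3 lower. Every difference below runs beside these lower marker sums, and their part in it was not tested. In bulk RNA, fewer cells that make a transcript and less of it per cell cannot be told apart.

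**Figure D2:**
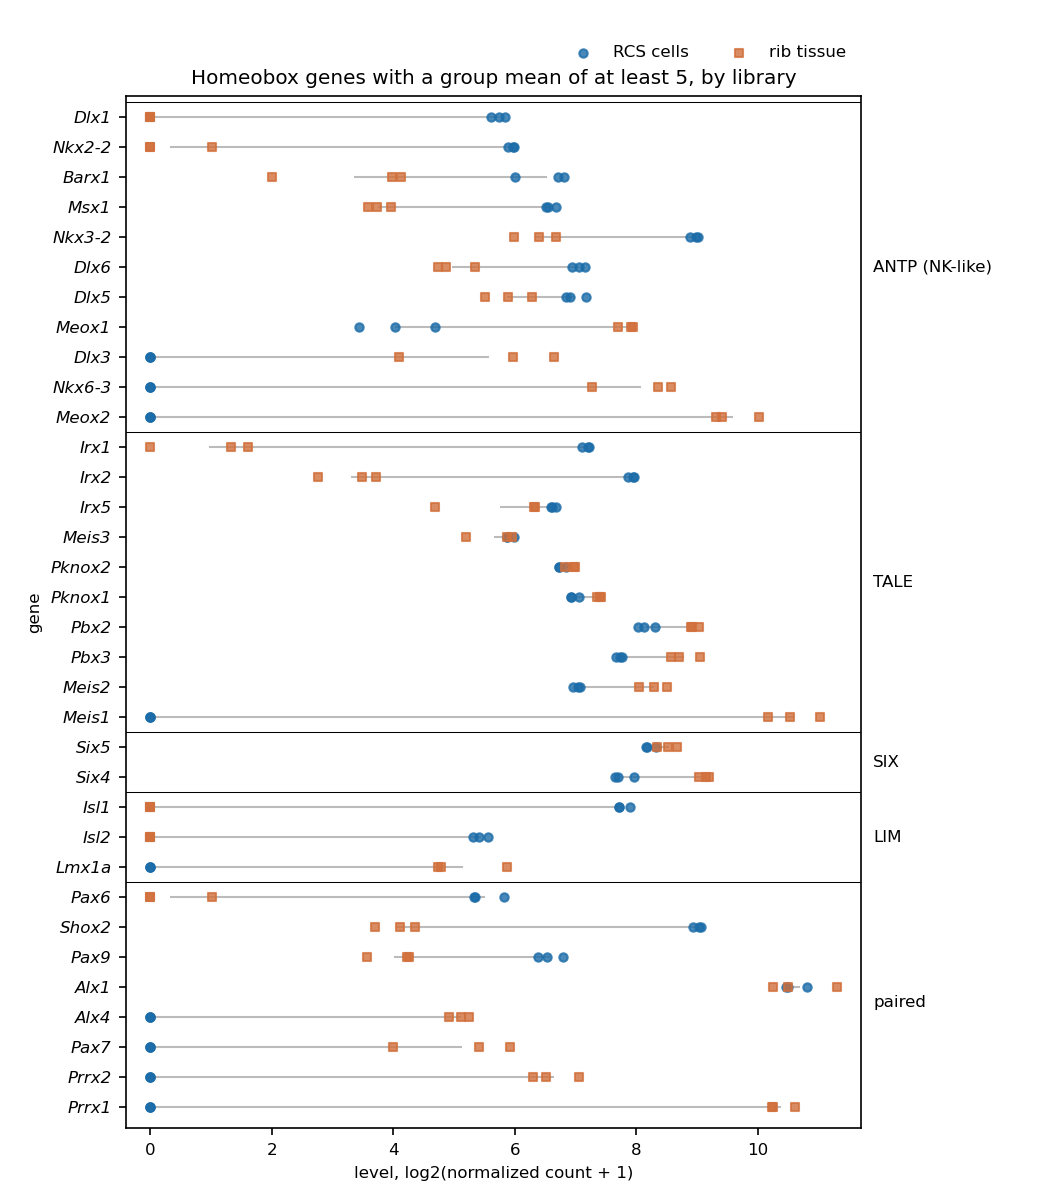
Level of 34 of the 37 homeobox genes with a group mean of at least 5, as log2(normalized count + 1), in each RCS library (circles) and each rib library (squares), grouped by class, with a grey line joining the 2 group means. Of the 34, 9 lie at 0 in all RCS libraries and 3 (Isl1, Isl2 and Dlx1) at 0 in all rib libraries, while most TALE genes and Six4 and Six5 lie at 5 or above in both.

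In the paired and paired-like class, the mesenchymal factors Prrx1 and Prrx2 were listed in rib tissue alone, Shox2 and Pax9 were higher in RCS cells, and Alx1 was high in both. Prrx1 (ENSRNOG00000003720) marks limb and perichondrial mesenchyme. Its normalized counts were 1222, 1559 and 1202 in the rib libraries (replicates 1, 2 and 3, the order kept below) and 0 in all RCS libraries. On the log2(normalized count + 1) scale the difference, RCS cells minus rib tissue, was -10.37 (SE 0.19), with a limma adjusted p (Benjamini-Hochberg) of 1.02e-08. Its relative Prrx2 (ENSRNOG00000006299) was at 132, 90.2 and 77.9 normalized counts in the rib libraries and at 0 in RCS cells, a log2 difference of -6.62 (SE 0.29) with a limma adjusted p of 3.10e-07. All 3 rib libraries stood far above 0 for both genes.

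Alx1 (ENSRNOG00000004390), a factor of craniofacial and limb mesenchyme, was at 1806, 1419 and 1447 normalized counts in RCS cells and 1219, 1447 and 2529 in rib tissue. The groups overlapped, with rib tissue replicate 3 highest of the 6 and replicate 1 lowest. The log2 difference was -0.09 (SE 0.25), with a 95% interval of -0.66 to 0.48 and a limma adjusted p of 0.758. Without rib tissue replicate 3 it turned positive (0.22), as it did under cyclic loess (0.0725) and quantile normalization (0.34), with no call under these 3 settings. Alx4, which shares roles with Alx1 in limb and skull patterning, was at 37.1, 29.3 and 33.5 normalized counts in the rib libraries. It was at 0 in every RCS library, a log2 difference of -5.09 (SE 0.26), and passed the filter through rib tissue only.

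Shox2, a factor of the proximal limb skeleton, was at 490.2, 536 and 520.0 normalized counts in RCS cells and 16.3, 19.5 and 12 in rib tissue. It was 31-fold higher in RCS cells, a log2 difference of 4.95 (SE 0.18) with a limma adjusted p of 1.24e-07, and every RCS library stood above every rib library. Shox2 overlaps Rsrc1 in RefSeq annotation of GRCr8, and reads within the overlap could not be told apart if counting ignored strand. In all, 26 of the 89 entries overlap another annotated gene there, among them Six4 with Mnat1, Six5 with Meiosin, Irx5 with Crnde, Emx2 with Emx2os, Pitx3 with Elovl3 and Pax9 with Slc25a21. Rsrc1 itself was at 155, 161 and 161 normalized counts in RCS cells and 93.3, 80.4 and 91.2 in rib samples, a smaller log2 difference of 0.84.

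The Pax genes divided. Pax9, which acts in the sclerotome and its cartilage, was at 82.9, 91 and 110.1 normalized counts in RCS cells and 18.2, 17.8 and 10.9 in rib tissue, 5.85-fold higher in RCS cells. Its close relative Pax1 was at 0 in every RCS library and at 46.2, 11.3 and 6 in rib tissue, a log2 difference of -3.996 (SE 0.63) that lost its call under quantile normalization (-1.52, adjusted p 0.112 in limma) and moved to -3.21 without rib tissue replicate 1 and to -4.59 without replicate 3. Pax9 and Pax1 thus stood in opposite directions, and Pax1 was highest in rib tissue replicate 1. Pax6 (ENSRNOG00000004410), known from eye, brain and pancreas, was at 39.9, 39.1 and 55.8 normalized counts in RCS cells and at 0, 1.03 and 0 in rib tissue, giving a log2 difference of 5.16 (SE 0.36) with a limma adjusted p of 4.19e-06. Pax3, a factor of neural crest and muscle precursors, was low in both groups, at 24.6, 23.6 and 27.8 in RCS cells and 6.82, 11.6 and 2 in rib tissue, and was higher in RCS cells by a log2 difference of 1.98 (SE 0.49). That call was lost with no filter on low values (adjusted p 0.0513 in limma). Pax7, the marker of muscle satellite cells, was at 41.5, 59.3 and 15 in rib tissue and at 0 in RCS cells, a log2 difference of -5.11 (SE 0.48). Rib tissue replicate 3, lowest for Pax7, also had the lowest sum of skeletal muscle markers.

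Pitx1 and Pitx3 were listed at 0 in every RCS library and the Otx genes at or near 0 in rib tissue. Pitx3, a lens and midbrain factor, was at 35.5, 25 and 4.20 normalized counts in rib tissue and Pitx1, a hindlimb gene, at 10.6, 4.10 and 2, both lower in RCS cells (Pitx3 by a log2 difference of -4.09, or -4.94 without rib tissue replicate 3), the Pitx1 call being lost under quantile normalization (-0.11) and cyclic loess (-0.03). Otx1 and Otx2, factors of the forebrain and midbrain, were low in RCS cells, at 2.18, 6.66 and 6.21 normalized counts for Otx1 and 12.7, 12.7 and 20.5 for the Otx2 entry with reads. Both were called higher in RCS cells. The second Otx2 entry, Pax2 and Gsc2 were at 0 in all 6 libraries. Pax4 and Pax8 were at 0 in RCS cells and at 2.25 or less in rib tissue, and Pax5, at 3.31 or less in every library, was called lower, a call lost with array weights and without RCS cells replicate 1 or 3, and turned to higher under cyclic loess (1.21).

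In the LIM class, both Isl genes were listed in RCS cells alone. RCS cells were above at 6 of 8 members tested and below at 2. Over all genes tested, 32.9% and 43.6% were called in those directions. Of these 8, 2 lay at 0 in every rib library and 1 in every RCS library, and so passed the filter through one group only. Lhx2 and Lhx3, at 0 in rib tissue replicate 3, also needed their RCS values to pass it. Among the 2 lower calls, Lhx6 turned under other scalings as given below. Isl1 (ENSRNOG00000012556), known from motor neurons, heart progenitors and hindlimb buds, was at 209, 208 and 237 normalized counts in RCS cells and at 0 in all rib libraries, giving a log2 difference of 7.77 (SE 0.23), the largest rise among the homeobox genes here, with a limma adjusted p of 4.51e-08. Isl2 (ENSRNOG00000015336), a motor neuron factor, was at 41.8, 46.2 and 38.8 and at 0, a log2 difference of 5.43 (SE 0.26) with a limma adjusted p of 4.75e-07. The 3 RCS libraries lay close together for both genes.

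The Lhx genes were low wherever they were listed. Lhx2, which acts in limb bud and forebrain, was at 12, 14.5 and 18.4 normalized counts in RCS cells and 6.06, 1.03 and 0 in rib tissue, and Lhx4, a pituitary and motor neuron factor, at 17.9, 17.3 and 20.2 and 4.76, 5.62 and 3. Lhx2, Lhx3, Lhx4 and Lhx9 were called higher in RCS cells, Lhx9 not without RCS cells replicate 3 (1.09, limma adjusted p 0.0515). The log2 difference of Lhx2, 2.70, moved to 3.47 without rib tissue replicate 1 and to 2.06 without replicate 3. Lhx6 was called lower at a limma adjusted p of 0.0493 (log2 difference -0.76), a call that became a rise with cyclic loess (1.04) or quantile normalization (1.86) and was lost with no filter, a pseudocount of 0.1, the replicate block and without any 1 library other than rib tissue replicate 3. Lmx1a, a factor of midbrain and inner ear, went the other way from Isl1. It was at 25.7, 57.4 and 26.6 normalized counts in rib tissue and 0 in RCS cells, a log2 difference of -5.13 (SE 0.36). Lhx1, Lhx5, Lhx8 and Lmx1b were at 0 in all 6 libraries.

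Of 5 genes tested in the sine oculis class, 4 were lower in RCS cells and 1 higher, beside 43.6% and 32.9% of all genes tested. Of these 5, 1 lay at 0 in every RCS library and 1 in every rib library, and so passed the filter through one group only. Six4, which acts with Eya proteins in muscle, was 2.55-fold higher in rib tissue, at 523, 563 and 586 normalized counts against 201, 207 and 247 (log2 difference -1.35 (SE 0.10)). Six5 (ENSRNOG00000015349), the neighbour of the muscle kinase gene Dmpk, was at 320.4, 288 and 284 normalized counts in RCS cells and 408, 324 and 367 in rib tissue. Its log2 difference was -0.30 (SE 0.11), with a 95% interval of -0.54 to -0.05 and a limma adjusted p of 0.0317, and the call was lost under quantile normalization (-0.26), with no filter (-0.30) and without RCS cells replicate 2 or 3 or rib tissue replicate 1 or 3 (-0.22 to -0.29). Six2, a factor of kidney and connective tissue progenitors, was at 53.1, 26.4 and 19 in rib tissue and 0 in RCS cells, while Six3, known from eye and forebrain, was at 19, 16.8 and 19.8 in RCS cells and 0 in rib tissue. Six6 was at 0 in all 6 libraries.

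The TALE class was the one most often present in both groups. Of its 15 members, 10 were above 0 in all 6 libraries (66.7%, against 49.2% of all genes), and 8 had a mean of at least 5 in both. That level in both groups was also reached by 3 of 6 genes of the sine oculis class and by 10202 of all 27217 genes. Of 14 tested, 8 fell in RCS cells, 2 rose and 4 passed in neither direction, beside 43.6% and 32.9% of all genes tested. Of these 14, 2 lay at 0 in every RCS library and so passed the filter through rib tissue only. Irx1, at 0 in rib tissue replicate 3, needed its RCS values to pass it. Meis1 (ENSRNOG00000004606), a partner of Hox and Pbx proteins in limb and blood, stood apart. It was at 1149, 1479 and 2093 normalized counts in rib tissue and at 0 in all 3 RCS libraries, a log2 difference of -10.58 (SE 0.24) with a limma adjusted p of 1.78e-08. That was the largest fall among the homeobox genes here, and rib tissue replicate 3 was highest of the 3 rib libraries.

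Its paralogs remained listed in RCS cells. Meis2 was at 131, 133 and 123 normalized counts in RCS cells and 264, 314 and 361 in rib tissue, or 2.40 times as high in the rib libraries (log2 difference -1.26 (SE 0.13)). Meis3 (ENSRNOG00000021390) was at 57.9, 62.7 and 57.8 in RCS cells and 61.4, 57.4 and 35.7 in rib tissue, and the groups overlapped. Its log2 difference was 0.24 (SE 0.23), with a 95% interval of -0.28 to 0.76 and a limma adjusted p of 0.353, and it was called higher under quantile normalization (1.38). Levels of the 3 Meis genes cannot be set against each other, since these values were read as not divided by gene length.

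The widely expressed Pbx2 and Pbx3 were lower in RCS cells. Pbx3 was at 201, 217 and 211 normalized counts in RCS cells and 381, 417 and 526 in rib tissue, 2.08-fold higher in the latter (log2 difference -1.06 (SE 0.12)) and Pbx2 1.73-fold (log2 difference -0.79 (SE 0.10)). The RCS and rib libraries did not overlap for either gene, and each kept its call under the 15 alternative settings run. Pbx4 was at 3.08, 3.92 and 5.29 normalized counts in RCS cells and 3.25, 6.36 and 0 in rib tissue and was not called, though cyclic loess (2.86) and quantile normalization (2.68) gave a called rise.

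The Pknox genes, which encode partners of Pbx proteins, differed by less than 2-fold. Pknox1 stood 1.34-fold above its RCS level in the rib libraries, and quantile normalization ended that call (-0.21). Pknox2 (ENSRNOG00000028856) was at 105, 105 and 114 normalized counts in RCS cells and 125, 113 and 126 in rib tissue, overlapping by 1 library. The log2 difference was -0.16 (SE 0.11), with a 95% interval of -0.43 to 0.10 and a limma adjusted p of 0.214. It turned to 0.22 under quantile normalization and was called lower under cyclic loess (-0.34).

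The Iroquois genes of the TALE class, which pattern limb, heart and nervous system, split within their clusters. Irx1 (ENSRNOG00000033609) was at 146, 149 and 137 normalized counts in RCS cells and 1.52, 2.05 and 0 in rib tissue, a log2 difference of 6.20 (SE 0.41) with a limma adjusted p of 3.06e-06. Irx2 was at 233, 245 and 248 in RCS cells and 12.1, 5.79 and 10.2 in rib tissue, a log2 difference of 4.60 (SE 0.25). Irx4, the cardiac ventricle member of the same cluster, went the other way, at 0 in RCS cells and 5.31, 12.3 and 15.5 in rib tissue. In the second cluster, Irx5 was at 95.9, 97.3 and 101 normalized counts in RCS cells and 78.6, 79.8 and 24.7 in rib tissue. Its difference of 0.85 (SE 0.41) was not called (95% interval -0.09 to 1.79), but was called without rib tissue replicate 3 (0.31), under quantile normalization (1.75) and with the replicate block (limma adjusted p 0.0257). Irx3 was at 8.16, 8.52 and 9.21 in RCS cells and 49.2, 46.6 and 9 in rib tissue. It was called lower in RCS cells at a limma adjusted p of 0.0360, a call lost under cyclic loess (-0.10), with no filter, with a pseudocount of 0.1 and without any 1 library other than rib tissue replicate 3, and the difference turned positive under quantile normalization (0.54). Without rib tissue replicate 3, at the level of the RCS libraries, the log2 difference went from -1.58 to -2.34. Irx6 was at 1.52, 7.06 and 0 in rib tissue and 0 in RCS cells, and was not tested.

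In the class of NK-like and related genes, the cartilage regulator Nkx3-2 and the Dlx5 and Dlx6 pair were listed in both groups and higher in RCS cells, while both Meox genes were lower. Of 20 tested, 12 were higher (60%), 7 lower (35%) and 1 neither, where 32.9% and 43.6% of all genes tested were called in those directions. Of these 20, 5 lay at 0 in every RCS library and 5 in every rib library, and so passed the filter through one group only. Nkx2-2, at 0 in rib tissue replicate 3, also needed its RCS values to pass it. Nkx3-2, a repressor that acts with Sox9 in early cartilage, was at 515, 503 and 472 normalized counts in RCS cells and 83, 62.3 and 102 in rib tissue, 6.08-fold higher in RCS cells. The log2 difference was 2.60 (SE 0.17), with a limma adjusted p of 2.53e-06. Barx1, a factor of joint and tooth mesenchyme, was at 103, 112 and 63.1 and 14.8, 16.4 and 3, 8.82-fold higher in RCS cells, with the log2 difference of 3.14 moving to 2.46 without rib tissue replicate 3. Msx1, a limb and skull factor, was at 89.96, 101 and 92.9 and 14.5, 12.3 and 11, 7.06-fold higher. Its paralog Msx2 was at 0 in RCS cells and 6.06, 4.10 and 3 in rib tissue, a low level whose call for RCS cells below rib tissue was lost under quantile normalization (-0.0688) and turned to 0.0861 under cyclic loess.

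Several NK genes known from other organs were listed in RCS cells. Nkx2-2 (ENSRNOG00000012728), a factor of oligodendrocyte and islet lineages, was at 62.7, 61.7 and 58.1 normalized counts in RCS cells and 0, 1.03 and 0 in rib tissue, giving a log2 difference of 5.61 (SE 0.34) with a limma adjusted p of 1.88e-06. Nkx2-3 was at 12.4, 15.5 and 18.4 and Nkx1-2 at 8.73, 8.39 and 9.21, both at 0 in every rib library. The heart gene Nkx2-5, the thyroid and lung gene Nkx2-1, Nkx2-4, Nkx2-6, Nkx2-8, Nkx1-1, Tlx2, Tlx3 and En2 were at 0 in all 6 libraries. Nkx6-1 and Msx3 had 1.026 normalized counts in rib tissue replicate 2 and 0 elsewhere, and Nkx6-2 was at 2.05 or less in every library and was not called, its sign turning under quantile normalization (1.55) and cyclic loess (2.34) to a called rise.

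Nkx6-3 (ENSRNOG00000018147), known from the stomach, was listed in rib tissue at 379.7, 325 and 153 normalized counts and at 0 in RCS cells, giving a log2 difference of -8.06 (SE 0.36) with a limma adjusted p of 3.52e-07. Nkx6-3 is the direct neighbour of Ank1, an ankyrin gene of red cells and muscle, in RefSeq annotation of GRCr8. Ank1 was at 497, 509.5 and 239 normalized counts in rib tissue and 0, 0 and 2.24 in RCS cells, also lowest in rib tissue replicate 3. Whether reads of Ank1 transcripts were counted to Nkx6-3 was not tested, so the Nkx6-3 value is uncertain.

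Meox2 and Meox1, factors of the somite and its muscle and sclerotome, were both high in rib tissue. Meox2 (ENSRNOG00000006588) was at 635, 1032 and 676 normalized counts in rib tissue and at 0 in RCS cells, a log2 difference of -9.58 (SE 0.25) with a limma adjusted p of 2.54e-08. Meox1 was at 241, 247 and 206 in rib tissue and 15.4, 9.86 and 24.6 in RCS cells, or 14 times as high in the rib libraries. The paralogs thus differed in RCS cells, where Meox1 was listed in all 3 libraries.

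The Dlx genes lie in pairs, and pairs went different ways. Dlx1 (ENSRNOG00000001520), known from forebrain interneurons and branchial arches, was at 47.9, 52.4 and 56 normalized counts in RCS cells and at 0 in rib tissue. The log2 difference was 5.73 (SE 0.25), with a limma adjusted p of 3.37e-07, and its neighbour Dlx2 was at 8.23, 6.02 and 3.54 and 0. Dlx5 and Dlx6, which promote chondrocyte and osteoblast maturation, were 2.13-fold and 4.19-fold higher in RCS cells. Dlx5 was at 144, 114 and 119 normalized counts in RCS cells and 76.6, 58 and 44.5 in rib tissue, and Dlx6 at 141, 121 and 132 and 39.4, 28.1 and 25.8. Dlx3 (ENSRNOG00000004278), a factor of skin, tooth and bone, was at 99, 61.5 and 16 in rib tissue and at 0 in RCS cells. Its log2 difference was -5.57 (SE 0.60), with a limma adjusted p of 4.85e-05 (-6.31 without rib tissue replicate 3), and its neighbour Dlx4 was at 1.52, 0 and 0 in rib tissue.

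Emx1, a cortex factor, was at 8.74, 13.8 and 12.7 normalized counts in RCS cells and 0 in rib tissue, and Emx2 at 3.27, 8.82 and 6.38 and 18.2, 18.5 and 14. Emx2 was called lower, and its difference of -1.39 turned to a called rise under quantile normalization (0.97) and to 0.28 under cyclic loess. En1, a factor of limb ectoderm and hindbrain, was at 18.5, 12.3 and 9.76 in rib tissue and 0 in RCS cells. Tlx1 was at 24.7, 21.8 and 22 in RCS cells and 9.24, 9.23 and 2.50 in rib tissue, and was called higher. Barx2, listed under a pseudogene symbol, was at 5.31 and 13.9 normalized counts in rib tissue replicates 1 and 2 and 0 elsewhere.

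**Figure D3:**
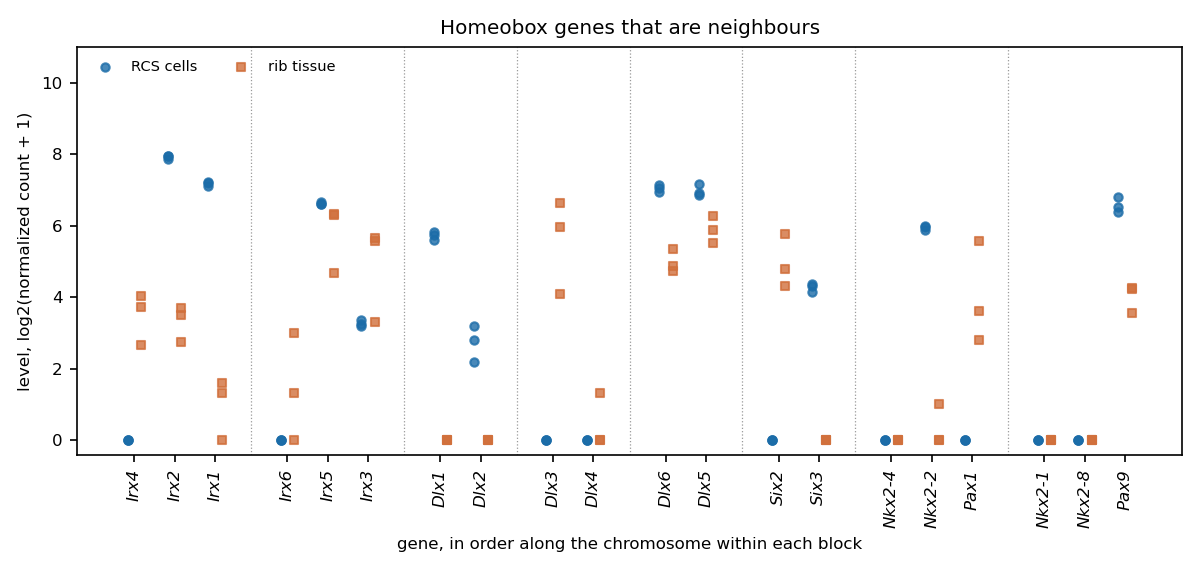
Level of homeobox genes that are neighbours on a chromosome in RefSeq annotation of GRCr8, as log2(normalized count + 1), in each RCS library (circles) and each rib library (squares), with blocks separated by dotted lines. Six2 and Six3 stand in opposite directions, as do Irx4 against Irx2 and Irx1, and Nkx2-2 against Pax1, while Dlx6 moves with Dlx5 and Dlx1 with Dlx2.

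Neighbouring genes were compared because many homeobox genes lie side by side. With at most 3 protein-coding genes between them in RefSeq annotation, 17 pairs of neighbours were found, and in 8 both genes were called. In 5 of these 8 both genes went the same way. Irx2 with Irx1, Dlx1 with Dlx2, and Dlx6 with Dlx5 were among them, all higher in RCS cells. In 3 the calls were opposite. They were Irx4 with Irx2, Nkx2-2 with Pax1, and Six2 with Six3, and in Six2 with Six3 each gene was at 0 in every library of one group. Pax1 lost its call under quantile normalization. In the other 9 pairs at least 1 gene was not tested or not called, such as Pax9 beside Nkx2-8, which was at 0 throughout. The share of same and opposite calls among neighbouring pairs of all genes was not computed. These counts therefore describe the listed pairs only and are no result on neighbours.

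The rib libraries did not rank alike across these genes. Among 39 homeobox genes with a mean of at least 3 in rib tissue (log2 scale), replicate 3 was the lowest of the 3 rib libraries for 24 (61.5%), against 38.9% of 14912 genes of the table at that level. It was highest for 9 (23.1%, against 35.2%), among them Meis1, Meis2, Pbx3, Alx1 and Nkx3-2. Pax7, Pitx3, Dlx3 and Nkx6-3 were lowest in replicate 3, the library whose summed markers were lowest for muscle (18941), fibroblast (48042), osteoblast (20538), endothelial and myeloid cells, while its sum of chondrocyte markers was 170732 and that of Schwann and nerve markers (4757) the highest of the 3. Within the Schwann and nerve list, S100b (1047, 980 and 1419 normalized counts in rib tissue replicates 1, 2 and 3), Mbp and Ncam1 were highest in replicate 3. Sox10, Erbb3 and Prx were lowest there, so the genes of this list did not rank the libraries alike. The part of tissue make-up in the order of the rib libraries was not tested.

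Promoters were compared because genes of development often have starts rich in CG dinucleotides. Of the 89 entries, 60 had a promoter in the RefSeq table, and the median was 14.5 CG dinucleotides in the 250 bases before the start, against 9 over 19005 promoters of protein-coding genes. The 19 members with a promoter that were higher in RCS cells had a median of 17 (range 5 to 33), and the 18 that were lower had 13.5 (range 4 to 45). The ranges overlapped, and no test was made. Of the 6 printed promoters, those of Irx1, Dlx1 and Isl1 hold 23, 22 and 19 CG dinucleotides, and those of Meis1, Prrx1 and Meox2 hold 9, 4 and 4. This contrast did not extend to all members, since Six2 (45), Msx2 (27) and Prrx2 (23), at 0 in RCS cells, had many, and Pax6 (5), high in RCS cells, had few. The 12 members listed in rib tissue alone had a median of 17.5 and the 7 listed in RCS cells alone 17.

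**Figure D4:**
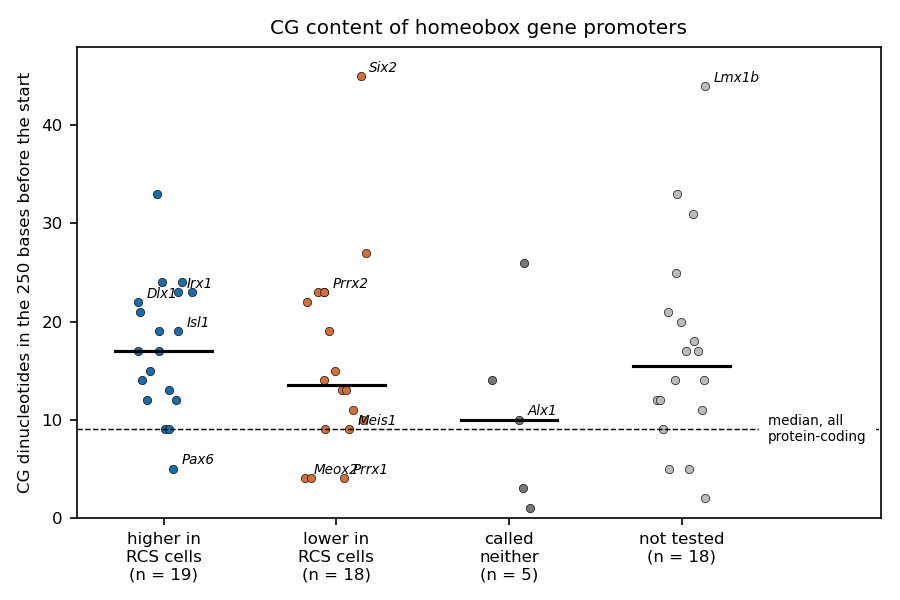
CG dinucleotides in the 250 bases before the transcription start (vertical axis) for the 60 homeobox genes with a RefSeq promoter, by call, with a bar at each group's median and a dashed line at the median of all protein-coding promoters (9). The groups overlap, from 5 to 33 for genes higher in RCS cells and from 4 to 45 for genes lower.

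Short motifs were searched for on both strands of the same 250 bases. AACAAT, a core that SOX proteins can bind, was in 3 of 60 promoters (5%), against 8.97% of protein-coding promoters. TAATTA, a core that homeodomains can bind, was in none of the 60 against 4.52%. TATAAA was in 3 (5%) against 12.3%. All 3 motifs are mostly A and T, and the 60 promoters held more G and C, a median of 62.6% against 54.8% in protein-coding promoters. The part of this in the lower shares was not tested. A match or its absence in this window is a description of the letters only.

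Genes for proteins that work with homeodomain factors were mostly lower in RCS cells. Of 20 genes for cofactors and partners (LDB and LMO proteins, SSBP partners, EYA and DACH partners of sine oculis proteins, Groucho corepressors and Pbxip1), 17 were lower, 1 was higher and 2 were neither. Over all genes tested, 43.6% were called lower and 32.9% higher. Of the 20, 5 lay at 0 in every RCS library, so they passed the filter through rib tissue only and could only be called lower. The median difference was -1.57 on the log2 scale, against -0.15 over all genes tested. Eya4 was at 148, 271 and 156 normalized counts in rib tissue, Ldb2 at 156, 226 and 171 and Ssbp4 at 274, 219 and 203, each at 0 in every RCS library. Lmo4, a LIM-only protein gene, was the 1 that was higher, at 186, 197 and 177 in RCS cells and 93.4, 96.6 and 89.2 in rib tissue, a log2 difference of 0.996 (SE 0.10).

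Among partners of sine oculis proteins, Eya1 was lower in RCS cells (log2 difference -1.05 (SE 0.19)), Eya2 was at 57.7, 33.7 and 27.7 normalized counts in rib tissue and 0 in RCS cells, and Eya3 differed by -0.16 (SE 0.08) without passing the test. Ldb1, the common partner of LIM homeodomain proteins, was at 471, 441 and 419 in RCS cells and 712, 660.1 and 718 in rib tissue, a log2 difference of -0.65 (SE 0.08). Pbxip1, which binds Pbx proteins, differed by -1.02 (SE 0.09). The Groucho genes Tle1 (-2.09), Tle2 (-0.66), Tle3 (-0.49) and Tle4 (-2.40) were all lower, as log2 differences.

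Of 85 other homeobox genes found in the table, 49 were tested. RCS cells were above rib tissue at 14, below at 24 and neither at 11 (28.6% and 49.0%, where 32.9% and 43.6% of all genes tested were called in those directions), against 23 above and 18 below under quantile normalization. Hmx2, an inner ear factor, was at 174, 183 and 182 normalized counts in RCS cells and 0, 0 and 2 in rib tissue. Dmbx1 was at 40.1, 34.8 and 36.9 and Pou3f2, a neural factor, at 71.5, 83.7 and 81.2 in RCS cells, with Dmbx1 at 0 and Pou3f2 at 0, 3.08 and 2 in rib tissue, the Pou3f2 log2 difference of 5.11 moving to 4.51 without rib tissue replicate 1. Prox1, a lymphatic and muscle factor, was at 153, 303 and 112 in rib tissue and 0 in RCS cells. Pou6f1 was lower by a log2 difference of -5.39 (SE 0.49) and the large zinc finger homeobox gene Zfhx4 by -3.27 (SE 0.10). Of the 85 genes, 2 (2.35%) were listed in RCS cells alone and 5 (5.88%) in rib tissue alone, against 0.492% and 7.15% of all genes. These genes are among those tested and passed the filter through one group only.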

How the data were processed

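The table deposited by the authors holds log2 values for 27217 genes in 6 libraries. Its name includes RPKM. Frequent low values, taken back to the linear scale, were spaced by a single unit in each library, common to many genes. The values were therefore read as scaled reads not divided by gene length, despite that name. CASAVA 1.8, DESeq and rn5 come from the submitters' processing notes, without a stated role; aligner, counting rule and strand use were not stated. In each library 39.5% to 55.6% of low values lay within 0.01 of a whole read, so no count model was used. A listed 0 allows up to 1 normalized count; this covers counting error only.

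Log2(normalized count + 1) values were compared by limma 3.58.1 (R 4.3.3; intensity trend, two-sided, Benjamini-Hochberg) over the 16809 genes that reached 1 in 3 or more libraries. The code was tested on simulated data. Folds are on that scale, which understates low genes, and need a mean of 10 in both groups. Given in full are the 6 largest called differences without overlap in each direction and the 4 smallest at a level of 5 in both groups; the other lists give their 3 most raised and 3 most lowered genes, and the remaining Eya and Tle genes, Ldb1 and Pbxip1 were added after their values were seen. The members and lists were chosen with earlier results of these data known. For 5 entries (Six5, Dlx6, En1, Nkx2-4, Barx2) the symbol or Entrez identifier decided, since the description did not name a homeobox. All 89 entries matched RefSeq (GRCr8), used for names, neighbours and promoters. Some members are counted but not reported by name here. Alternatives were 3 other scalings, 2 filters, 2 pseudocounts, array weights, a replicate block and leaving out each library.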

Additional observations from a re-analysis of the deposited data

How the results depend on the processing

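The 27 higher and 30 lower homeobox entries became 15 and 15 with a stricter filter on low values, which left 34 of 63 entries tested. Other homeobox genes higher in RCS cells moved from 14 to 23 under quantile normalization, 24 under cyclic loess and 9 with the stricter filter, and cofactors higher in RCS cells from 1 to 2 under quantile normalization. Leaving out 1 library gave 26 to 28 higher and 26 to 29 lower homeobox entries. Of 73 single-gene differences followed over 15 alternatives, 56 kept direction and call in all that could be fitted. Signs turned under quantile normalization for Emx2 (0.97), Nkx6-2 (1.55), Lhx6 (1.86), Irx3 (0.54), Pknox2 (0.22), Alx1 (0.34) and Pax5 (0.71), and under cyclic loess for Emx2 (0.28), Msx2 (0.0861), Nkx6-2 (2.34), Lhx6 (1.04), Alx1 (0.0725) and Pax5 (1.21). The cause was not tested. Leaving out 1 library gave differences of -0.74 to 0.17 for Nkx6-2, turned without RCS cells replicate 3 or rib tissue replicate 2, and of -0.16 to 1.28 for Pbx4 and -0.31 to 0.22 for Alx1, both turned without rib tissue replicate 3. Same-numbered libraries deviated together at correlations of 0.064, -0.076 and 0.047, so the numbers were not taken to pair them; with the replicate block 28 homeobox entries were higher and 29 lower. A listed 0 stands for up to 1.93 reads, which limits statements on the lowest genes.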
